A study of Mus musculus with 27 samples.

Results

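A set of 10 genes that mark microglia at rest, P2ry12, P2ry13, Tmem119, Siglech, Gpr34, Olfml3, Sall1, Slc2a5, Fcrls and Cx3cr1, were followed through the mouse brain, meninges and skull. They were taken by symbol, and all 10 were found among the 37095 genes of the count table. Messenger RNA was counted in 27 libraries from 3 tissues, with 3 libraries in each of 9 groups. In each tissue the groups were untreated (control), 0.5 h after and 24 h after UVB light at 311 nm and 2 mW was shone on the interparietal bone, at the back of the skullcap. The title of the series concerns immune changes around the brain after light on the head, and the controls were not irradiated. Animals given light elsewhere than the head, which the design also names, were not analysed here. No allele, transgene or drug is named for any group, and strain, sex and age are not given in the labels. The labels do not say whether libraries of a group came from separate animals, so p-values measure only the spread between these samples, which may be technical.

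Microglia are the resident macrophages of the brain. They depend on signals from the growth factor receptor Csf1r and from TGF-beta, and at rest they express purinergic, chemokine and lectin receptors with which they survey their surroundings. Several of these genes are known to be turned down when microglia respond to injury or disease, and the set is therefore widely read as a sign of the resting state. Some of them are also known outside the brain: P2ry12 in platelets, Siglech in plasmacytoid dendritic cells, Cx3cr1 in monocytes and many tissue macrophages, and Tmem119 in osteoblasts.

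All 10 genes were matched to GENCODE M21 on GRCm38. P2ry13 (chromosome 3, 59207892 to 59210882, minus strand) and P2ry12 (chromosome 3, 59216272 to 59262871, minus strand) are neighbours inside Med12l, which runs on the plus strand. P2ry12 shares 9 exon bases with Med12l, and P2ry13 lies in an intron of it. Gpr34 (chromosome X, 13632089 to 13640858, plus strand) lies in an intron of Cask on the opposite strand. Cx3cr1 (chromosome 9, 119901616 to 120069879, minus strand) shares 78 exon bases with the antisense gene Gm33858. The strand setting of the counting is not given in the sources used here, so reads over these shared bases may belong to either gene. Tmem119 lies on chromosome 5 (113793729 to 113800516, minus strand) and Olfml3 on chromosome 3 (103722222 to 103738001, minus strand). Fcrls lies on chromosome 3 (87250758 to 87263738, minus strand), Siglech on chromosome 7 (55768178 to 55778925, plus strand), Sall1 on chromosome 8 (89027235 to 89044162, minus strand) and Slc2a5 on chromosome 4 (150119283 to 150144169, plus strand).

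Promoters of the 4 members on chromosome 3 are shown, because 2 of them are neighbours of which only P2ry13 was called in the meninges after irradiation, and the other 2 are a receptor gene with several matches of the searched motif and a secreted protein without it near its start. Each run ends at the base before the RefSeq start on GRCm38.p6 and is written on the strand of the gene, 5′ to 3′. Capitals mark AGGAAG or its reverse complement CTTCCT, the core of the site bound by PU.1, the macrophage factor encoded by Spi1. The windows are chr3:59210883-59211002 for P2ry13, chr3:59262986-59263105 for P2ry12, chr3:87263525-87263744 for Fcrls and chr3:103738002-103738121 for Olfml3. The annotations differ in where some genes start: 214 of the 220 Fcrls bases shown lie inside the GENCODE gene, upstream of the RefSeq start, and the RefSeq start of P2ry12 lies upstream of the GENCODE one.
P2ry13: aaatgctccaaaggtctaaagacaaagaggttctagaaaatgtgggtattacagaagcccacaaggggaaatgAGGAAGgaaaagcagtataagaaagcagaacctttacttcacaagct
P2ry12: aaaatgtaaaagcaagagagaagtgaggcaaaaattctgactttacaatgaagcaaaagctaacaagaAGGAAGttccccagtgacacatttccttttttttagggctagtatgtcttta
Fcrls: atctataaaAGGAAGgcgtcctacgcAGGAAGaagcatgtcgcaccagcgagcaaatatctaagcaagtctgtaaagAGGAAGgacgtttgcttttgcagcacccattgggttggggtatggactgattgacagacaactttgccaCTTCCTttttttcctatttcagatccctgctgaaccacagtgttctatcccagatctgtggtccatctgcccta
Olfml3: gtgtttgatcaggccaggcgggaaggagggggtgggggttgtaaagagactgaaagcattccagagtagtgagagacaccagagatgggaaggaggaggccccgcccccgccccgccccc
Within the 250 bases before the start, 5 of the 8 members in the RefSeq promoter table hold the motif on either strand, against 32.3% of the 27025 genes in the table. Fcrls holds 4 matches and P2ry12, P2ry13, Olfml3 and Sall1 hold 1 each. That of Olfml3 lies upstream of the bases shown, and Siglech, Slc2a5 and Cx3cr1 hold none. Sall1 has several RefSeq starts, and its match lies before 1 whose first bases were not found in a GENCODE transcript. The Sall1 start that was found in GENCODE has no match before it. Tmem119 and Gpr34 have no sequence shown. A match describes these letters and is not a measured binding site.

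Library totals ran from 14208961 to 27305294 counts. The deepest was brain control 1, and the next held 18174269 counts. That library also stood apart in content: 7 antigen presentation genes summed to 78.3 CPM (counts scaled to the library total) in it, against 19.7 and 22.4 CPM in the other brain controls and 17.6 to 25.4 CPM in the 6 brain libraries after irradiation. Brain 24 h 1 stood apart from the other 24 h libraries in abundant genes. Apoe, a lipid carrier of glia, had 523 CPM in it, 861 and 951 CPM in 24 h 2 and 24 h 3, and 911 to 924 CPM in brain controls. Mef2c, a neuronal and microglial factor, had 913 CPM in it, 572 and 622 CPM in 24 h 2 and 24 h 3, and 543 to 634 CPM in brain controls. Brain results are therefore also given without brain control 1 or brain 24 h 1 where that changes them. Choroid plexus transcripts varied between brain libraries too. Its 7 genes summed to 291, 1201 and 1106 CPM at 0.5 h, with 0.5 h 1 lowest. They summed to 501, 1169 and 1130 CPM in control, with control 1 lowest, and to 902 to 1092 CPM at 24 h. Levels of single genes are CPM on totals scaled by TMM within a tissue, and sums over lists use plain totals. A gene is called at an adjusted p under 0.05 by the edgeR quasi-likelihood test, with Benjamini-Hochberg adjustment over all tested genes of a comparison. Errors are SD for levels and SE for log2 fold changes, with 3 libraries in each group. In bulk tissue, fewer cells of a type and less RNA per cell cannot be told apart.

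All 10 members were measured in every brain library and passed the filter on low counts there. Per kilobase of exon, the highest in the untreated brain was P2ry12, an ADP receptor that guides microglial processes to sites of injury, at 10.03 ± 1.21 CPM per kb. Cx3cr1, the receptor of the neuronal chemokine fractalkine, followed at 8.59 ± 1.02 CPM per kb. Tmem119, a transmembrane protein used to tell microglia from blood-derived cells, stood at 7.64 ± 0.51 CPM per kb, and Fcrls, a scavenger receptor related to Fc receptors, at 7.46 ± 1.44 CPM per kb. Neighbours among these 4 had overlapping ranges.

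A lower tier began with Sall1, a transcription factor that maintains microglial identity, at 4.36 ± 1.09 CPM per kb in the untreated brain. Siglech, a Siglec family receptor that signals through DAP12, stood at 4.15 ± 0.52 CPM per kb, and Gpr34, a receptor for lysophosphatidylserine, at 3.72 ± 0.65 CPM per kb. The ranges of Sall1 and of Fcrls above it did not overlap, while Sall1 was above Siglech in 1 of 3 libraries, so the order of that pair was not fixed. Olfml3, a secreted matrix protein of the olfactomedin family, stood at 2.89 ± 0.24 CPM per kb and P2ry13, a further ADP receptor, at 2.67 ± 0.57 CPM per kb. Slc2a5, the fructose transporter GLUT5, was lowest at 1.02 ± 0.12 CPM per kb, and its range lay below that of P2ry13. The order from P2ry12 to Cx3cr1 at the top and Slc2a5 at the bottom also held in both irradiated brain groups. At 24 h Tmem119 stood behind Fcrls, at 5.73 ± 0.62 against 8.85 ± 0.54 CPM per kb.

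**Figure D1:**
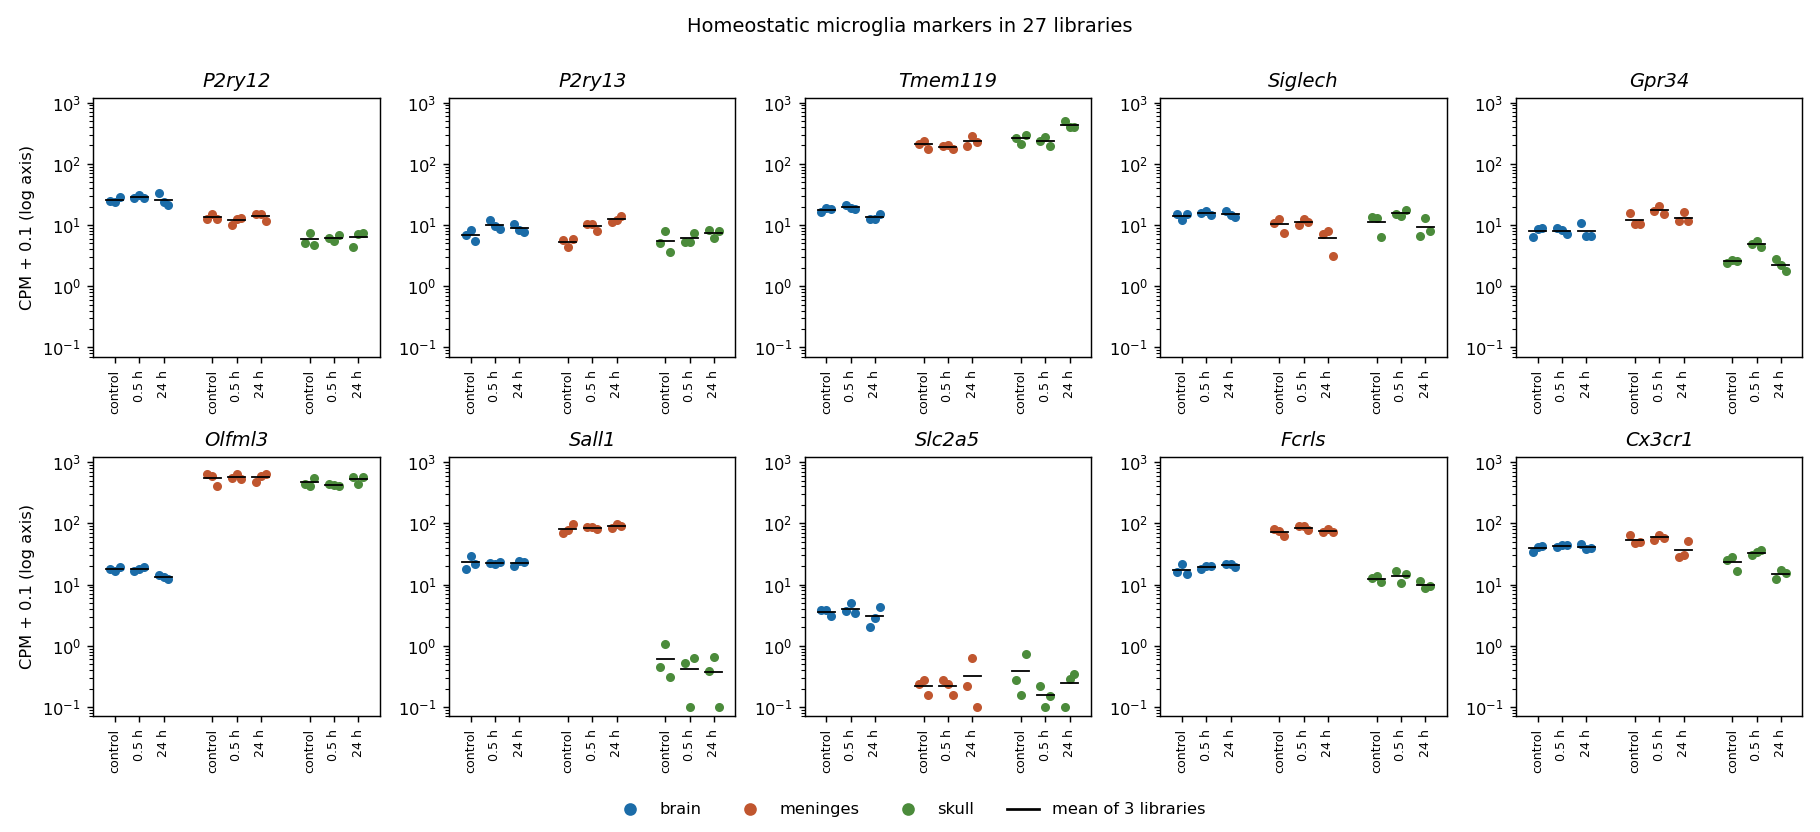
CPM of each member (log axis, 0.1 added) in all 27 libraries, by tissue and group, with a line at the mean of 3 libraries. Tmem119 and Olfml3 lie above 100 CPM in meninges and skull and under 22 CPM in every brain library, while Slc2a5 is under 1 CPM outside the brain.

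In the brain 24 h after irradiation, no member was called: 0 of 10, where 2.62% of the 18172 tested genes were called in either direction. Of the 10, 2 had an unadjusted p under 0.05, against 18.3% of all tested genes. Both were on the low side and both had groups that did not overlap. Their share can be set against the 10.8% of all tested genes that were lower without overlap. The median log2 fold change of the members was 0.03, and that of all tested genes −0.0031.

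Tmem119 had 12.4, 12.4 and 14.9 CPM in the brain at 24 h, against 16.4, 18.6 and 18.2 CPM in control. Every 24 h library was below every control library. The log2 fold change was −0.41 ± 0.13, with a 95% interval from −0.69 to −0.14 and an adjusted p = 0.0985. Olfml3 had 14.5, 13.3 and 12.3 CPM at 24 h, against 17.7, 16.3 and 19.3 CPM in control. Here too the groups were separate, with a log2 fold change of −0.41 ± 0.13 and an adjusted p = 0.0985. Neither passed the threshold under any of 18 alternative settings, in which the adjusted p ran from 0.077 to 0.239 for Tmem119 and from 0.0762 to 0.233 for Olfml3. Without brain control 1 the log2 fold changes were −0.46 (adjusted p = 0.162) and −0.41 (adjusted p = 0.233), and without brain 24 h 1 they were −0.37 (adjusted p = 0.239) and −0.47 (adjusted p = 0.123).

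These are the 2 members with the highest levels in the tissues over the brain. Summed markers of those tissues overlapped between the brain groups. The 12 fibroblast markers summed to 218 to 285 CPM at 24 h and 199 to 299 CPM in control. The 8 osteoblast markers summed to 33.9, 31.0 and 36.1 CPM at 24 h and 35.2, 35.2 and 37.9 CPM in control. In brain controls Runx2 and Dmp1 averaged 18.7 and 6.28 CPM of a mean osteoblast sum of 36.1 CPM. Pdgfra and Col1a1 averaged 73.0 and 43.7 CPM of a fibroblast sum of 244 CPM. The sums thus lean on these few genes and do not describe each list as a whole. None of these 20 markers was at 0 in a whole brain group. The part of other tissue in the Tmem119 and Olfml3 values was not tested. Set against P2ry12 in the same library, Tmem119 had 37.6, 52.9 and 70.3 counts per 100 P2ry12 counts at 24 h and 67.3, 79.7 and 62.5 in control. Those ratios overlapped. Olfml3 had 43.8, 56.6 and 58.2 counts per 100 P2ry12 counts at 24 h and 73.0, 70.1 and 66.4 in control, without overlap.

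None of the purinergic, lipid and chemokine receptors was called in the brain at 24 h, and their groups overlapped with control. P2ry12 had 33.0, 23.5 and 21.2 CPM at 24 h, against 24.3, 23.3 and 29.0 CPM in control, and its log2 fold change was 0.02 (95% interval −0.28 to 0.33). P2ry13 had 10.2, 8.23 and 7.56 CPM at 24 h, against 6.84, 8.14 and 5.29 CPM in control, with a log2 fold change of 0.36 (−0.07 to 0.79) and an adjusted p = 0.372. Gpr34 stood at 0.05 (−0.42 to 0.51), with 10.8, 6.53 and 6.59 CPM at 24 h, against 6.22, 8.40 and 8.73 CPM in control, so that 24 h 1 was above all other brain libraries. Cx3cr1 was the most tightly bounded member, at 0.09 (−0.13 to 0.31), with 45.3, 38.1 and 39.9 CPM at 24 h, against 33.5, 40.6 and 42.0 CPM in control.

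The remaining members were not called in the brain at 24 h either, and all had overlapping groups. Fcrls had 21.3, 21.4 and 19.2 CPM at 24 h, against 16.2, 21.2 and 14.8 CPM in control, a log2 fold change of 0.25 (95% interval −0.04 to 0.54). Siglech had 17.1, 14.4 and 13.2 CPM at 24 h, against 14.9, 12.01 and 15.2 CPM in control (0.08, −0.23 to 0.39). These scavenger and Siglec family receptors were followed by the identity factor Sall1 at −0.02 (−0.32 to 0.29), with 20.4, 23.9 and 23.5 CPM at 24 h and 18.1, 29.3 and 21.5 CPM in control. Slc2a5 ran from 1.92 to 4.16 CPM at 24 h and from 2.99 to 3.73 CPM in control. It had 28, 41 and 60 counts in the 24 h libraries. In control it had 102, 56 and 47 counts, the 102 in the deepest library, brain control 1. Slc2a5 had the widest interval, −0.23 (−0.86 to 0.39). Changes of any size within that interval are compatible with these counts. Without brain control 1 the median of the 10 members was −0.05 in place of 0.03, and 7 in place of 4 were negative, with P2ry12, Gpr34 and Cx3cr1 changing sign at values of −0.01, −0.09 and −0.00. Without brain 24 h 1 the median was −0.01 and 6 were negative, with P2ry12 at −0.19, Gpr34 at −0.24 and Cx3cr1 at 0.02, and no member was called.

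**Figure D2:**
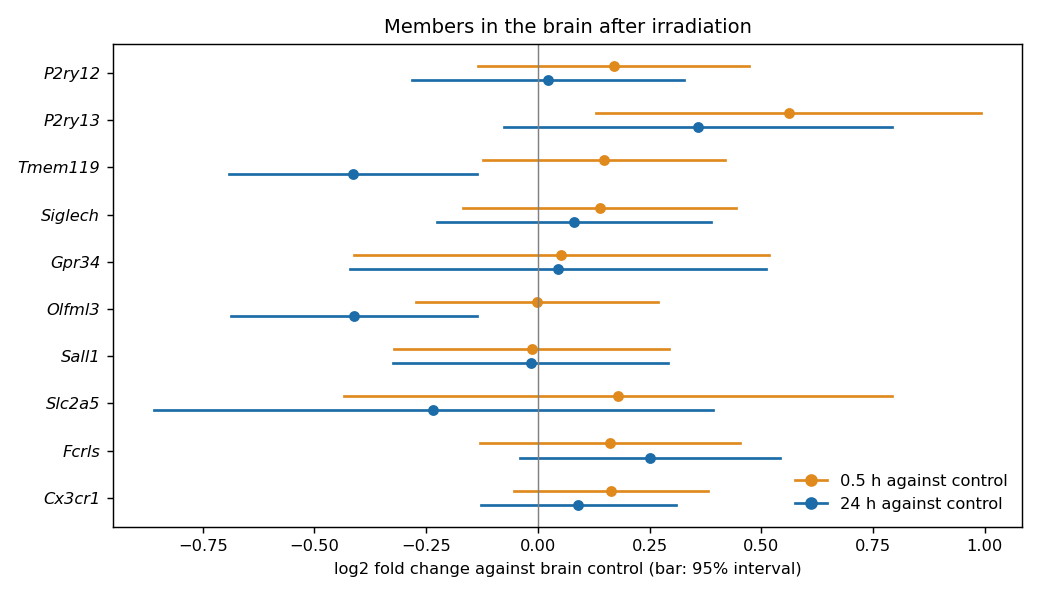
Log2 fold change against brain control (horizontal axis) at 0.5 h and 24 h for each member, with 95% intervals. At 24 h the intervals of Tmem119 and Olfml3 lie below 0, and at 0.5 h that of P2ry13 lies above 0; none of these 3 passed the adjusted threshold.

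At 0.5 h in the brain 0 of 10 members were called, where 0.0055% of tested genes were called (1 of 18172, with 955 or 5.26% at an unadjusted p under 0.05). The members had a median log2 fold change of 0.15, and 8 of 10 were positive. The largest was P2ry13, with 11.99, 9.54 and 8.38 CPM at 0.5 h against 6.84, 8.14 and 5.29 CPM in control. All 3 irradiated libraries were above the controls, as in 5.98% of all tested genes, and the log2 fold change was 0.56 ± 0.21 (unadjusted p = 0.0135, adjusted p = 0.881). Among the other 9 the log2 fold changes ran from −0.01 to 0.18 and all groups overlapped. DESeq2 and limma-voom called no member either.

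Between the irradiated groups, the brain at 24 h against 0.5 h, 0 of 10 members were called, where 0.22% of tested genes were. Of the members 9 were negative, with a median of −0.11. Tmem119 had 12.4, 12.4 and 14.9 CPM at 24 h against 21.4, 18.9 and 18.3 CPM at 0.5 h, a log2 fold change of −0.56 ± 0.13 (adjusted p = 0.0847). It was called with no filter on low counts (adjusted p = 0.024) and by DESeq2 (adjusted p = 0.0195), and not under the other 16 settings. Olfml3 stood at −0.41 ± 0.13 (adjusted p = 0.225), again with separate groups. Separation on the low side was seen in 2 of 10 members and in 8.84% of all tested genes.

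General macrophage genes are shared by microglia and all other tissue macrophages. In the brain at 24 h, 4 of 20 fell and none rose, where 2.62% of tested genes were called, and 16 of 20 were negative with a median log2 fold change of −0.37. All 3 chains of C1q, the first component of complement that microglia supply to the brain, were among the 4. C1qa had 19.3, 25.0 and 21.3 CPM at 24 h, against 35.2, 29.1 and 37.6 CPM in control (log2 fold change −0.64 ± 0.12, adjusted p = 0.0107). C1qb stood at −0.64 ± 0.13 (adjusted p = 0.0146) and C1qc at −0.47 ± 0.12 (adjusted p = 0.0421). The lysosomal protease Ctss had 41.6, 35.4 and 35.1 CPM at 24 h, against 54.6, 46.0 and 65.5 CPM in control (−0.57 ± 0.11, adjusted p = 0.0153). For each of C1qa, C1qb, C1qc and Ctss, all 24 h libraries were below all controls.

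Other genes of this list that are close partners of the members did not pass. Csf1r, the growth factor receptor on which microglia depend, averaged 66.8 ± 4.6 CPM at 24 h and 82.9 ± 10.3 CPM in control (log2 fold change −0.31, adjusted p = 0.0932). Tyrobp, the adaptor DAP12, stood at −0.79 ± 0.23 (adjusted p = 0.0771), and Trem2, which signals through it, at 0.22 ± 0.17. The summed level of the 20 genes was 355 to 423 CPM in control, 337 to 365 CPM at 0.5 h and 299.5 to 322 CPM at 24 h, so the 24 h libraries lay below all others. The summed level of the 10 resting markers was 158 to 180 CPM in control, 185 to 192 CPM at 0.5 h and 165 to 186 CPM at 24 h, with 24 h overlapping both of the others.

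The calls among macrophage genes changed with the fit. Of 18 alternatives, C1qa kept its call under 16, C1qb under 15, Ctss under 14 and C1qc under 5, and C1qc had an adjusted p of up to 0.195. Without brain control 1, an alternative added after the values were seen, 1 of 20 was called (Ctss, adjusted p = 0.0498), with a median of −0.32. C1qa and C1qb then stood just above the threshold, at adjusted p = 0.0519 and 0.0526. Without brain 24 h 1, also added after the values were seen, 3 of 20 were called, with a median of −0.36, and C1qc was not (adjusted p = 0.131). In a fit of all 27 libraries none of the 4 was called, with adjusted p from 0.121 for C1qb to 0.382 for Ctss and nearly the same fold changes. The difference between the 4 complement and protease genes and the 10 markers was not tested.

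**Figure D3:**
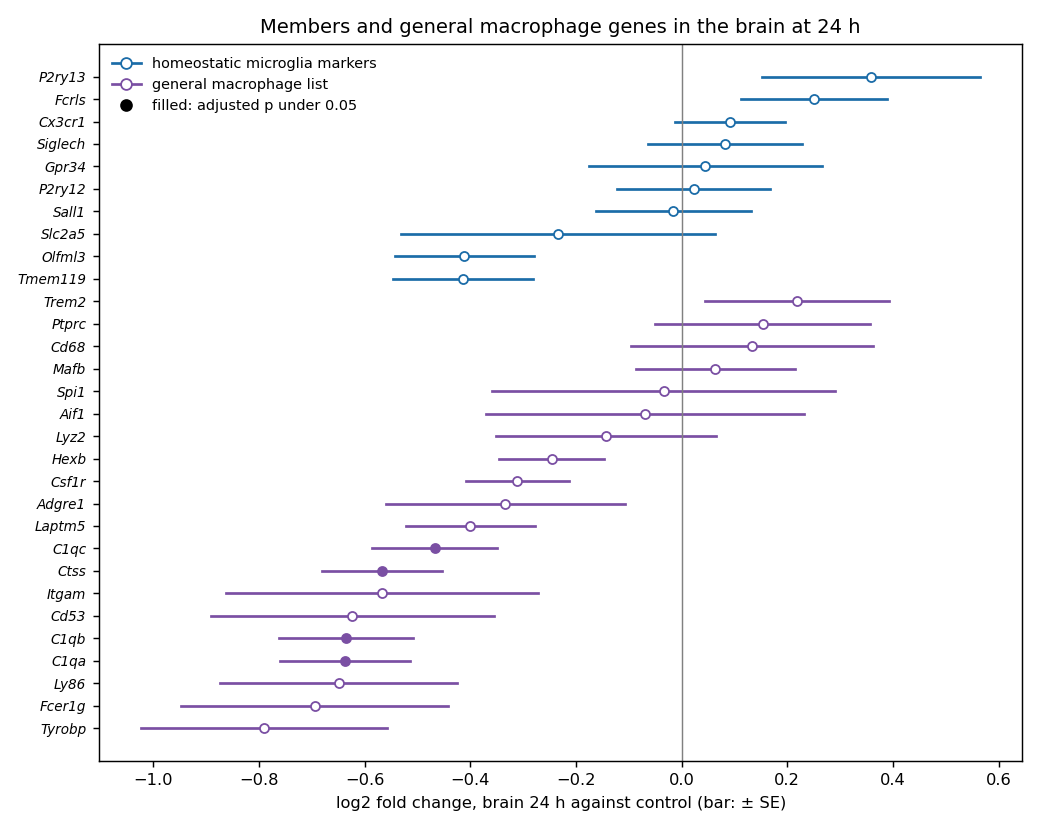
Log2 fold change in the brain at 24 h against control (horizontal axis, bars ± SE) for the 10 members and 20 general macrophage genes, filled where called. The members spread on both sides of 0 around a median of 0.03, while 16 of the 20 macrophage genes lie below 0.

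Further microglial groups had few calls in the brain at 24 h. Of 21 tested genes that signal to microglia or carry such signals, 1 fell: Smad4, the common partner of TGF-beta signalling, had 36.5, 41.1 and 41.2 CPM at 24 h against 53.7, 46.9 and 52.2 CPM in control (−0.36 ± 0.09, adjusted p = 0.0451). Cx3cl1, the fractalkine ligand of Cx3cr1, averaged 621 ± 82 CPM at 24 h and 669.7 ± 14.6 CPM in control and was not called. Of 16 tested genes of activated microglia 1 fell, the lysosomal protease Ctsd (−0.39 ± 0.09, adjusted p = 0.0371), and none rose. Both stood close to the threshold: Ctsd kept its call under 7 and Smad4 under 5 of 18 alternatives, with adjusted p of up to 0.179 and 0.19. Without brain 24 h 1 neither was called (adjusted p = 0.111 and 0.132). None of 15 lineage transcription factors was called, among them Mef2c, the most abundant (0.28 ± 0.16, and 0.04 without brain 24 h 1). None of 22 tested other microglia-enriched genes was called either. Among these Cst3, a secreted inhibitor of cysteine proteases, had 303, 437 and 461 CPM at 24 h, against 539, 563 and 525 CPM in control (−0.44 ± 0.13, adjusted p = 0.0987). It was called without brain 24 h 1, at a smaller log2 fold change of −0.27 (adjusted p = 0.0383). Most signalling and activated genes were negative, called or not. Without brain control 1 these were 16 of 21 (median −0.19) and 12 of 16 (−0.09), and without brain 24 h 1 19 of 21 (−0.22) and 15 of 17 (−0.32). Lineage factors and other enriched genes were more evenly split. Of these 7 of 15 and 13 of 22 were negative without brain control 1, and 9 of 15 and 13 of 22 without brain 24 h 1.

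Among markers of cells that may share the members, 1 of 9 tested border macrophage genes fell in the brain at 24 h. It was Clec12a, a C-type lectin, with 0.137, 0.136 and 0.0693 CPM at 24 h against 1.06, 0.722 and 1.40 CPM in control (adjusted p = 0.0174). At 0.5 h it had 1.97, 1.07 and 1.16 CPM. Clec12a is near the floor and passed the filter on low counts only through its control and 0.5 h groups. Its call thus rests on few reads. The 14 border macrophage genes summed to 48.5 to 51.4 CPM at 24 h and 51.8 to 58.2 CPM in control, without overlap, and none was at 0 in a whole brain group. Of 5 tested megakaryocyte and platelet genes the glycoprotein gene Gp1ba fell (−1.78 ± 0.38, adjusted p = 0.0202) and Vwf, which endothelium also makes, rose (0.53 ± 0.13, adjusted p = 0.0375). P2ry12, a member of that list too, stood at 0.02. Without brain control 1 none of 10 tested border macrophage genes and none of 6 tested megakaryocyte genes was called by edgeR. Without brain 24 h 1 Clec12a was not called (adjusted p = 0.0512), while Gp1ba (adjusted p = 0.0429) and Vwf (adjusted p = 0.0459) were. None of 7 tested plasmacytoid dendritic cell genes, 3 monocyte genes or 2 neutrophil genes was called, and the summed levels of each of the 3 lists overlapped between 24 h and control. In brain controls, Pacsin1 and Tcf4 averaged 443 and 424 CPM of a mean plasmacytoid sum of 914 CPM. Fn1 and Nr4a1 averaged 84.2 and 83.2 CPM of a monocyte sum of 187 CPM. Csf3r averaged 8.21 CPM of a neutrophil sum of 10.7 CPM. The overlap of these sums is therefore mostly that of these few genes. Megakaryocyte genes other than P2ry12 summed to 34.0, 41.3 and 36.2 CPM at 24 h, against 28.9, 27.7 and 30.3 CPM in control, so every 24 h library was above every control. Most of each sum was Vwf, at 28.4, 34.1 and 29.9 CPM at 24 h and 19.9, 20.6 and 23.5 CPM in control. The order of the sums thus follows Vwf and does not describe the list as a whole. In brain controls 1 gene each of the plasmacytoid, monocyte, neutrophil and megakaryocyte lists was at 0 in all 3 libraries. The part of these cells in the member values was not tested. Med12l, which holds P2ry12 and P2ry13, averaged 56.3 ± 0.5 CPM at 24 h and 53.4 ± 1.9 CPM in control, and Cask, which holds Gpr34, 109 ± 7.2 CPM at 24 h and 106.5 ± 3.8 CPM in control, with neither called.

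Outside the brain most of these genes were measured too, and there they are given by gene and not as microglial markers. The meninges libraries also carried transcripts of the brain: 10 neuron genes summed to 6517 to 6796 CPM in brain controls, 312 to 727 CPM in meninges controls and 23.4 to 30.9 CPM in skull controls. Transcripts of the choroid plexus varied between meninges libraries, with 7 genes summing to between 103 and 21125 CPM. The part of brain tissue in the meninges values of the members was not tested. Against the untreated meninges 7 of 10 members differed, 2 higher and 5 lower in the brain, where 70.5% of the 21500 tested genes differed (33.7% higher and 36.8% lower). Against the untreated skull 8 of 10 differed, 6 higher and 2 lower in the brain, where 75.6% of genes did (38.3% higher and 37.3% lower). In the brain Tmem119 averaged 17.7 ± 1.2 CPM, against 208 ± 31 CPM in meninges and 259 ± 45 CPM in skull (log2 fold changes −3.46 ± 0.16 and −4.00 ± 0.17). Olfml3 averaged 17.8 ± 1.5 CPM in brain, against 548 ± 122 CPM in meninges and 467 ± 70 CPM in skull (−4.85 ± 0.17 and −4.84 ± 0.17). All 4 adjusted p were 5.88e-15 or smaller. These 2 genes made up 19.2% to 21.6% of the summed level of the 10 members in brain controls, 70.7% to 77.0% in meninges controls and 89.5% to 94.9% in skull controls, so outside the brain a sum over the set is mostly a sum of these 2.

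Slc2a5 and P2ry12 were the 2 members higher in the brain than in both other tissues. Slc2a5 had 102, 56 and 47 counts in brain controls, against 2, 3 and 1 in meninges controls and 3, 1 and 9 in skull controls. The log2 fold changes were 4.82 ± 0.78 against meninges and 3.51 ± 0.70 against skull. P2ry12 averaged 25.5 ± 3.1 CPM in brain, against 13.2 ± 1.4 CPM in meninges and 5.72 ± 1.47 CPM in skull (1.05 ± 0.20, adjusted p = 5.77e-05, and 2.03 ± 0.21, adjusted p = 4.8e-09).

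Sall1 split the other tissues. It averaged 23.0 ± 5.7 CPM in brain, against 81.8 ± 14.4 CPM in meninges, and had 6, 17 and 3 counts in the skull controls. The log2 fold change of brain was −1.75 ± 0.27 against meninges (adjusted p = 6.89e-06) and 5.29 ± 0.40 against skull (adjusted p = 8.27e-11). Fcrls averaged 17.4 ± 3.4 CPM in brain, 73.0 ± 10.4 CPM in meninges and 12.4 ± 1.6 CPM in skull, and Gpr34 7.78 ± 1.36, 12.1 ± 3.3 and 2.46 ± 0.12 CPM. The brain was below the meninges in Fcrls (−1.98 ± 0.15) and above the skull in Gpr34 (1.53 ± 0.25). For Gpr34 the brain and meninges differed by −0.54 ± 0.23 (adjusted p = 0.036), a call lost under 6 settings. Cx3cr1 averaged 38.7 ± 4.6 CPM in brain, against 53.6 ± 9.0 CPM in meninges, which was not called, and 23.3 ± 5.9 CPM in skull, which was (0.60 ± 0.20, adjusted p = 0.00807). The brain call of Fcrls over skull (0.35 ± 0.16, adjusted p = 0.0427) was lost under 4 settings and that of Cx3cr1 under 1. P2ry13 and Siglech were not called between brain and either tissue, though against meninges P2ry13 was called with RLE scaling (adjusted p = 0.0495) and DESeq2 (0.0392) and Siglech with DESeq2 (0.0433). Between meninges and skull 6 of 10 members differed, 5 higher and 1 lower in the meninges, where 48.2% of genes differed (26.5% higher and 21.6% lower). The member lower in the meninges was Tmem119, at −0.53 ± 0.15.

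In the meninges at 24 h 1 of 9 tested members was called, P2ry13, where 8.42% of 18542 genes were called and 3.97% were higher. It had 11.3, 11.97 and 13.9 CPM at 24 h, against 5.61, 4.21 and 5.85 CPM in control. All 24 h libraries were above all controls, and P2ry13 rose by a log2 fold change of 1.24 ± 0.19 (adjusted p = 0.00357). It was called under all 18 alternatives, with log2 fold changes from 1.10 to 1.34. At 0.5 h it had 10.3, 10.4 and 7.97 CPM, again above the controls, with 0.87 ± 0.19 (adjusted p = 0.0652). No member was called at 0.5 h in the meninges, where 0.874% of genes were, though limma-voom (adjusted p = 0.0445), DESeq2 (0.00604) and the unfiltered fit (0.0391) called P2ry13. Its neighbour P2ry12 stood at 0.07 ± 0.16 at 24 h, and the host gene Med12l was not called (0.22 ± 0.22, adjusted p = 0.599).

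Of the other members in the meninges at 24 h, Cx3cr1 had 27.8, 30.9 and 51.4 CPM at 24 h, against 63.9, 47.9 and 49.0 CPM in control. The first 2 libraries were below the controls and 24 h 3 among them, with a log2 fold change of −0.55 ± 0.22 (adjusted p = 0.177). Without that library the value was −0.87 and Cx3cr1 was called (adjusted p = 0.0119). Between 24 h and 0.5 h in the meninges 0 of 9 members were called by edgeR, where 2.34% of genes were, and DESeq2 called Cx3cr1 (−0.68, adjusted p = 0.0312). At 24 h against control Siglech stood at −0.78 ± 0.33 (adjusted p = 0.175), with 24 h 3 lowest at 2.98 CPM. Slc2a5, at 0 to 9 counts in each meninges library, did not pass the filter, and the other 5 tested members ran from 0.04 to 0.19.

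Border macrophage genes moved beside P2ry13 in the meninges. Of the 14, 3 rose at 24 h and none fell: the coagulation factor subunit F13a1 (0.83 ± 0.12), the hyaluronan receptor Lyve1 (0.80 ± 0.11) and the carbonyl reductase Cbr2 (0.50 ± 0.09). The list summed to 1754 to 2177 CPM at 24 h and 1335 to 1713 CPM in control, with none of its genes at 0 in a whole group. Of 20 general macrophage genes 1 rose, Trem2 (0.97 ± 0.24, adjusted p = 0.0294), none fell, and 18 were negative. Of 7 antigen presentation genes 5 fell. The 10 neuron genes summed to 311 to 543 CPM at 24 h and overlapped with the meninges controls. The 7 choroid plexus genes summed to 21125, 139 and 5784 CPM at 24 h, against 103, 6865 and 9462 CPM in control, also with overlap. The part of these cells in the P2ry13 value was not tested.

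In the skull, which carries marrow, 8 members were tested, because Sall1 and Slc2a5 did not pass the filter. At 24 h 1 rose and 1 fell, where 20.9% of 17426 genes were called, 10.6% higher and 10.4% lower. Tmem119 had 495, 393 and 401 CPM at 24 h, against 264, 211 and 300.3 CPM in control. The groups did not overlap, and Tmem119 rose by 0.73 ± 0.16 (adjusted p = 0.00788), a call held under all 18 alternatives with log2 fold changes from 0.61 to 0.85. Its level at 0.5 h was 235, 278 and 197 CPM and overlapped with the controls. Olfml3, the other abundant member, stood at 0.18 ± 0.13 at 24 h and was not called.

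Osteoblast genes were mixed beside Tmem119 in the skull at 24 h. Of 8, 3 rose, the matrix protein Ibsp (0.92 ± 0.17), the osteoblast transcription factor Sp7 (1.01 ± 0.18) and the alkaline phosphatase Alpl (0.57 ± 0.12), and 2 fell, the osteocalcin genes Bglap (−1.46 ± 0.42) and Bglap2 (−1.55 ± 0.36). Bglap and Bglap2 are near-identical copies whose reads may be split between them. The 8 genes summed to 4422 to 4620 CPM at 24 h and 3362 to 4912 CPM in control, with none at 0 in a whole group. Their part in the Tmem119 value was not tested.

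Cx3cr1 fell in the skull at 24 h, to 12.1, 17.1 and 15.4 CPM, against 25.4, 27.7 and 16.6 CPM in control. Skull control 3 overlapped with the 24 h libraries, and the log2 fold change was −0.65 ± 0.18 (adjusted p = 0.0269). The call was lost in the fit of the 2 groups alone and without control 1, control 2, 24 h 1 or 24 h 3 (adjusted p from 0.0554 to 0.107). Markers of marrow cells also varied in these libraries: 12 neutrophil genes summed to 3799 to 5911 CPM at 24 h and 4124 to 8823 CPM in control, with control 3 lowest, and 1 of 12 fell. Of 11 tested monocyte genes, Ccr2, the chemokine receptor of classical monocytes, rose (0.73 ± 0.17) and Nr4a1 (−2.12 ± 0.26) and Treml4 (−0.55 ± 0.17), marks of the non-classical monocytes that bear Cx3cr1, fell. The list summed to 2839 to 3227 CPM at 24 h and 2681 to 3235 CPM in control. Fn1 averaged 1703 CPM of a mean sum of 3048 CPM at 24 h, and 1303 CPM of 3016 CPM in control. The monocyte sum thus leans on Fn1 and does not describe the list as a whole. Of 7 antigen presentation genes 5 fell, with sums of 373 to 423 CPM at 24 h and 582 to 993 CPM in control. Of 20 general macrophage genes 5 fell at 24 h: C1qa (−0.85 ± 0.22), C1qb (−0.69 ± 0.17), C1qc (−0.60 ± 0.17), the lysosomal membrane protein gene Laptm5 (−0.47 ± 0.13) and Adgre1, which encodes F4/80 (−0.48 ± 0.15). Trem2 rose (1.10 ± 0.24), and the list, Cx3cr1 not among its genes, summed to 2472 to 2928 CPM at 24 h and 2427 to 3936 CPM in control, with overlap. No gene of these 4 lists was at 0 in a whole skull group. The part of these cells in the Cx3cr1 value was not tested.

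At 0.5 h in the skull 1 of 8 members was called, where 4.9% of genes were (1.96% higher). Gpr34 had 4.80, 5.31 and 4.23 CPM at 0.5 h, against 2.32, 2.56 and 2.49 CPM in control, and rose by 0.96 ± 0.25 (adjusted p = 0.047). Every irradiated library was above every control, on 80 to 90 counts each against 36 to 45. The call was lost under 11 of 18 alternatives, with adjusted p up to 0.173 without 0.5 h 2 and of 0.0745 with the replicate number as a block. Cx3cr1 had 30.2, 33.4 and 36.0 CPM at 0.5 h, also above all controls (0.51 ± 0.18, adjusted p = 0.124), and was called with no filter on low counts (adjusted p = 0.0476), and Siglech was above its controls too (0.48 ± 0.30). Such separation upward was seen in 3 of 8 members and in 13.4% of all tested genes.

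Between 24 h and 0.5 h in the skull 3 of 8 members were called, 1 higher and 2 lower at 24 h, where 16.1% of genes were called, 8.39% higher and 7.74% lower. Tmem119 rose by 0.86 ± 0.16 (adjusted p = 0.00468). Gpr34 had 2.66, 2.14 and 1.65 CPM at 24 h against 4.80, 5.31 and 4.23 CPM at 0.5 h and fell by 1.15 ± 0.25 (adjusted p = 0.00959). Cx3cr1 fell by 1.16 ± 0.18 (adjusted p = 0.00198), to less than the lowest 0.5 h library in every 24 h library. All 3 calls held under all 18 alternatives. Under some of them Siglech, Olfml3 or Fcrls was called as well. The comparisons of one tissue share their libraries and are not independent of each other.

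**Figure D4:**
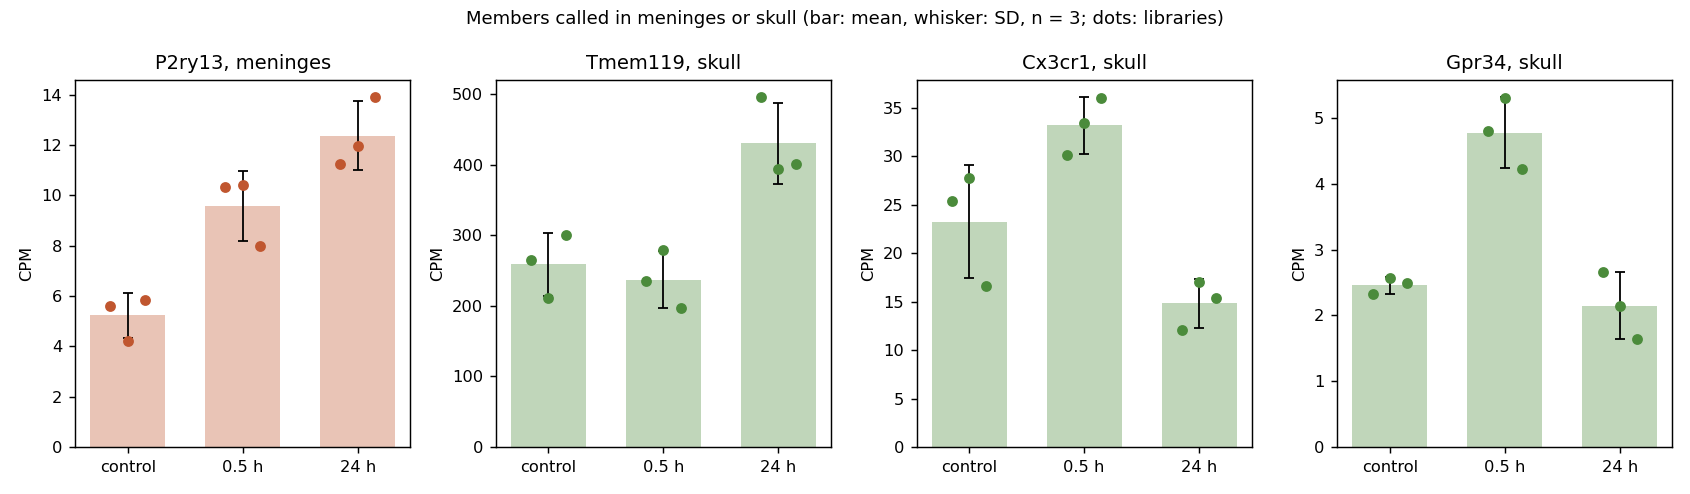
CPM of the 4 members called in meninges or skull against control, with bars at the mean of 3 libraries, whiskers of 1 SD and dots for libraries. P2ry13 in the meninges and Tmem119 in the skull are highest at 24 h, while Gpr34 in the skull is highest at 0.5 h and Cx3cr1 in the skull is lowest at 24 h.

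The effect of 24 h differed between brain and skull for 1 of 10 members, Tmem119, where 6.71% of 21500 genes were called and 3.33% were lower. The brain effect minus the skull effect was −1.14 ± 0.22 (log2, adjusted p = 0.00226), beside −0.41 in the brain and 0.73 in the skull when each tissue was fitted alone. Between brain and meninges 0 of 10 differed at 24 h by edgeR, with 5 at an unadjusted p under 0.05, where 1.32% of genes were called and 13.9% had an unadjusted p under 0.05. The difference for P2ry13 was −0.85 ± 0.35 (adjusted p = 0.258), so its rise in the meninges was not shown to differ from the 0.36 of the brain. At 0.5 h 0 of 10 members differed between brain and meninges or between brain and skull, where 0.0093% and 0.209% of genes did.

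The genes whose levels followed the mean pattern of the 10 members most closely over the 9 group means were Hsdl2, Add3, Gm37090, Gsdme, Zbtb46, Jmjd8, Smpd1 and Ivd. Likeness was the root-mean-square distance on the log2(CPM + 0.5) scale, with each gene centred on its own mean, among 12152 genes of at least 5 CPM in brain. It was 0.03 for Hsdl2, which averaged 31.5 ± 1.8 CPM in brain controls, 57.6 ± 2.1 CPM in meninges controls and 22.7 ± 3.0 CPM in skull controls, and 0.11 to 0.13 for the other 7. The members themselves lay 0.41 (Cx3cr1) to 2.34 (Sall1) from their own mean pattern, farther than these 8 genes. The mean thus joins patterns that differ from gene to gene, and closeness to it is a description of tissue levels.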

How the data were processed

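The values analysed are whole-number counts for each gene symbol, as the authors deposited them for 27 libraries. RNA was taken with TRIzol and selected for poly(A), per the labels' protocols. The submitters' processing notes name HISAT2 2.1.0 and mm10. How reads were assigned to genes is not stated there.

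In R 4.3.3, edgeR 4.0.16 tested each tissue on 9 libraries by its robust quasi-likelihood F test, after TMM scaling and a filterByExpr filter (minimum count 10, total 15). A fit to all 27 libraries compared the untreated tissues with each other and gave the differences between tissues in the effect of irradiation. Benjamini-Hochberg adjustment covered every tested gene, with calls at 0.05. An SE was derived from the F statistic. The procedure was tested on simulated counts. GENCODE M21 matched 33392 of 37095 symbols (90%) for lengths and positions.

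The 10 members and the 24 other gene lists were chosen with earlier results of these data known. All members are named. From other lists, genes called in brain (at most 6 per list) and the 2 with the highest CPM in brain controls could be named; Tyrobp, Trem2 and those given for meninges and skull were picked after their values were seen. Alternatives were RLE scaling, TMM after dropping haemoglobin and mitochondrial genes, an unfiltered fit, a fit that was not robust, limma-voom with quality weights (limma 3.58.1), DESeq2 1.42.0, a replicate block, 2 groups alone, the 27-library fit and leaving out each library.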

Additional observations from a re-analysis of the deposited data

Results flagged for a closer look

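The 24 h effect on Tmem119 differed between brain and skull by a test of the difference itself, which is why it is given here. The brain effect minus the skull effect was −1.14 ± 0.22 on the log2 scale (edgeR, adjusted p = 0.00226, 3 libraries per group). All 3 brain libraries at 24 h were below all brain controls, and all 3 skull libraries at 24 h were above all skull controls. The brain value alone did not pass (adjusted p = 0.0985), and the skull value did (adjusted p = 0.00788). The level was 13.3 ± 1.4 CPM in brain at 24 h and 429.9 ± 57 CPM in skull at 24 h.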

How the results depend on the processing

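Of 2538 recomputed values of members, 2484 stayed on their side of the threshold, 27 lost a call and 27 gained one, and none that was called changed sign. Among values that were not called, 46 changed sign in 135 recomputations, to sizes of at most 0.72. The count of members called was 1 in place of 0 for brain 24 h against 0.5 h (no filter, DESeq2), meninges 0.5 h against control (no filter, limma-voom, DESeq2) and meninges 24 h against 0.5 h (DESeq2). In skull it was 1 in place of 2 at 24 h against control with the 2 groups alone, 0 in place of 1 at 0.5 h with the 2 groups alone or the replicate block, and for 24 h against 0.5 h 5 in place of 3 with limma-voom, which added Siglech and Olfml3, while Siglech was added with the 2 groups alone (adjusted p = 0.0437), Olfml3 with no filter (0.0296) and Fcrls in the 27-library fit (0.0364). With a library left out, the counts ran from 1 to 2 (meninges 24 h), 0 to 1 (meninges 24 h against 0.5 h), 1 to 2 (skull 24 h), 0 to 1 (skull 0.5 h), 3 to 5 (skull 24 h against 0.5 h), 0 to 1 (24 h effect, brain minus meninges) and 1 to 3 (brain minus skull). Replicate numbers did not pair the libraries (correlations of deviations from −0.43 to 0.15), so the replicate block is only an alternative, and Gpr34 in skull at 0.5 h lost its call under it (adjusted p = 0.0745). Over all genes, the count called in brain at 24 h against control was 477, against 1214 with no filter, 877 by DESeq2 and 301 with the 2 groups alone, and it was 153 when control 1 was dropped, 228 for control 2, 229 for 24 h 1 and 301 for 0.5 h 2. In brain at 24 h against 0.5 h it was 40, from 7 without 0.5 h 1 to 438 with no filter, and in meninges at 24 h it was 1561, as low as 727 without control 2. The cause of these shifts was not tested, though leaving out a library also takes a replicate from the fit. Depth limits Slc2a5 outside the brain and Sall1 in skull, which had too few counts to be tested within those tissues.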

Other observations

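Gene groups not described above were also measured in the brain at 24 h. All 8 oligodendrocyte genes were negative, with a median log2 fold change of −0.34 and 0 called. Of 8 endothelial genes, the transporter Slco1a4 rose (0.56 ± 0.08, adjusted p = 0.00211) and Cldn5, a tight junction protein, fell (−0.64 ± 0.14, adjusted p = 0.0252). Cldn5 had 17.1, 26.8 and 27.7 CPM at 24 h, against 38.3, 35.3 and 37.7 CPM in control. Without brain control 1, Slco1a4 was called (adjusted p = 0.0137) and Cldn5 was not (adjusted p = 0.0924). Without brain 24 h 1 both were called, Cldn5 at −0.45 (adjusted p = 0.0419), and the oligodendrocyte median was −0.20. Csrnp1 lies within the annotated span of Cx3cr1 on the same strand and shares no exon base with it. It fell in the brain at 24 h (−1.33 ± 0.22, adjusted p = 0.00829), and Cx3cr1 stood at 0.09.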
